A study of Mus musculus with 4 samples.

Results

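The 41 genes described here encode secreted Wnt ligands, their Frizzled and LRP receptors, the secreted proteins that hold Wnt back or amplify it, and a small number of intracellular members, the TCF and LEF factors and 3 feedback inhibitors. They were chosen by gene symbol from knowledge of the pathway, with earlier results of these data known. Of the 41, 40 were found among the 21462 genes of the deposited table. Expression of *Fzd9* was not analysed here. The libraries were made from total RNA of sorted lung smooth muscle cells of mice, 2 from *Tet3* mutants and 2 from controls, and the question addressed was what loss of TET3 does to expression in these cells. TET3 is an enzyme that oxidizes methylated cytosine in DNA. By the study's methods, the mutants carried floxed *Tet3* alleles, a tamoxifen-inducible ERT2Cre under the α-SMA promoter and a *ROSA26* tdTomato reporter. For controls of its experiments the methods give mice without the floxed allele that carried the Cre, the reporter or both. Sorting by tdTomato needs the reporter and the Cre, so the controls sequenced here would have carried both. All mice were on the C57BL/6 background and were injected with tamoxifen as adults. Live tdTomato-positive cells were sorted after depletion of cells with CD45 or Ter-119, so the sort aimed at cells in which the α-SMA promoter had been active. Age and sex were not in the labels. Libraries stand for independent animals according to the study. The p-values measure only the spread between these samples.

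Wnt proteins are secreted lipid-modified ligands that bind Frizzled receptors together with the co-receptors LRP5 and LRP6, upon which β-catenin escapes degradation and acts in the nucleus with TCF and LEF factors. Other Wnt proteins, of which WNT5A is the best known, signal largely without β-catenin. Secreted Frizzled-related proteins and WIF1 bind Wnt directly, and some but not all Dickkopf proteins act at LRP5 and LRP6. NOTUM removes the lipid, and R-spondins acting through LGR receptors keep Frizzled at the surface. In the lung, Wnt signals shape branching and the growth of airway and vascular smooth muscle during development.

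Before the results, 1 library needs mention. Control replicate 2 was more than 2-fold from each of the other 3 libraries in 6.02% of all genes, against 0.72% to 1.49% for the others, and it differed from them in its sex-linked genes, with 2 normalized counts of *Xist* against 5214 to 6781 and 774 of *Ddx3y* against 0. By these values control replicate 2 reads as male and the other 3 libraries as female, so sex was not balanced between the groups. The part of sex in the results was not tested. Values without control replicate 2 are given beside the results that it moves most. *Tet3* stood at 1847 and 1926 normalized counts in the controls and 1534 and 1444 in the mutants. Deposited totals lay between 6805272 and 7164573 per library. The 10 markers of smooth muscle cells were each above 3 normalized counts in every library, and *Acta2* (α-SMA) ranged from 686 to 1032. The markers of 12 other lung cell types were present as well. All 10 alveolar type 2, all 10 fibroblast and all 9 endothelial markers also exceeded 3 in every library. The level of 3 is about the highest expected count at which a library can read 0 by counting error only. It does not tell these cell types apart. The smooth muscle markers summed to 10762 to 12895 normalized counts per library and the alveolar type 2 markers to 12254 to 25448, not corrected for length. Only in mutant replicate 1 was the smooth muscle sum the larger.

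No member of the gene set passed the test. In a limma fit across 16659 genes with a mean of at least 10, 0 of 38 members tested had an adjusted p under 0.05, as for 0.0% of all genes, and the smallest adjusted p of any gene was 0.0902. At an unadjusted p under 0.05, limma counted 5 of 38 members (13.2%) and 1112 genes in all (6.68%). *Sfrp1*, *Frzb* and *Wif1* were higher in the mutants (3 members, 7.89%, against 3.83% of all genes) and *Fzd5* and *Fzd8* lower (2 members, 5.26%, against 2.85%). The 5 became 17 without control replicate 1, where 20.2% of all genes were counted, and 1, *Sfrp1*, without either mutant replicate 1 or 2, where 1.64% and 2.49% of all genes were. Without control replicate 2 they were 5 of another make-up, *Sfrp1*, *Sfrp2*, *Frzb*, *Wif1* and *Lgr5*, all higher, beside 5.37% of all genes. With libraries scaled to equal totals, the share of higher genes among all those at an unadjusted p under 0.05 went from 57.4% to 69.2%, and the members counted were 6, with *Dkk3* added. *Fzd10* and *Sfrp5* lay under the minimum mean and were not tested, and *Frzb* reached it only through the mutants. Without *Frzb* the unadjusted count was 4 of 37 (10.8%).

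The 2 controls and the 2 mutants did not overlap in 13 of 38 members (34.2%), fewer than the 39.0% of all genes. In 7 the mutants were higher (18.4%, against 19.6%) and in 6 lower (15.8%, against 19.5%). Of the 13, 6 also differed by more than 1.5-fold (15.8%, against 12.1% of all genes). *Wnt5a*, *Sfrp1*, *Sfrp2*, *Frzb* and *Wif1* were those higher in the mutants (5 members, 13.2%, against 6.21%) and *Fzd5* was the 1 lower (2.63%, against 5.85%). Without *Frzb*, the groups did not overlap in 12 of 37 (32.4%), and 4 of 37 (10.8%) were higher by more than 1.5-fold. The log2 fold change, mutant over control, was above 0 in 21 members (55.3%, against 49.0%), and its median was 0.09 over the members and -0.01 over all genes. With 2 libraries a group an exact permutation test of a single gene cannot go below 0.33, so limma supplied the only test.

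**Figure D1:**
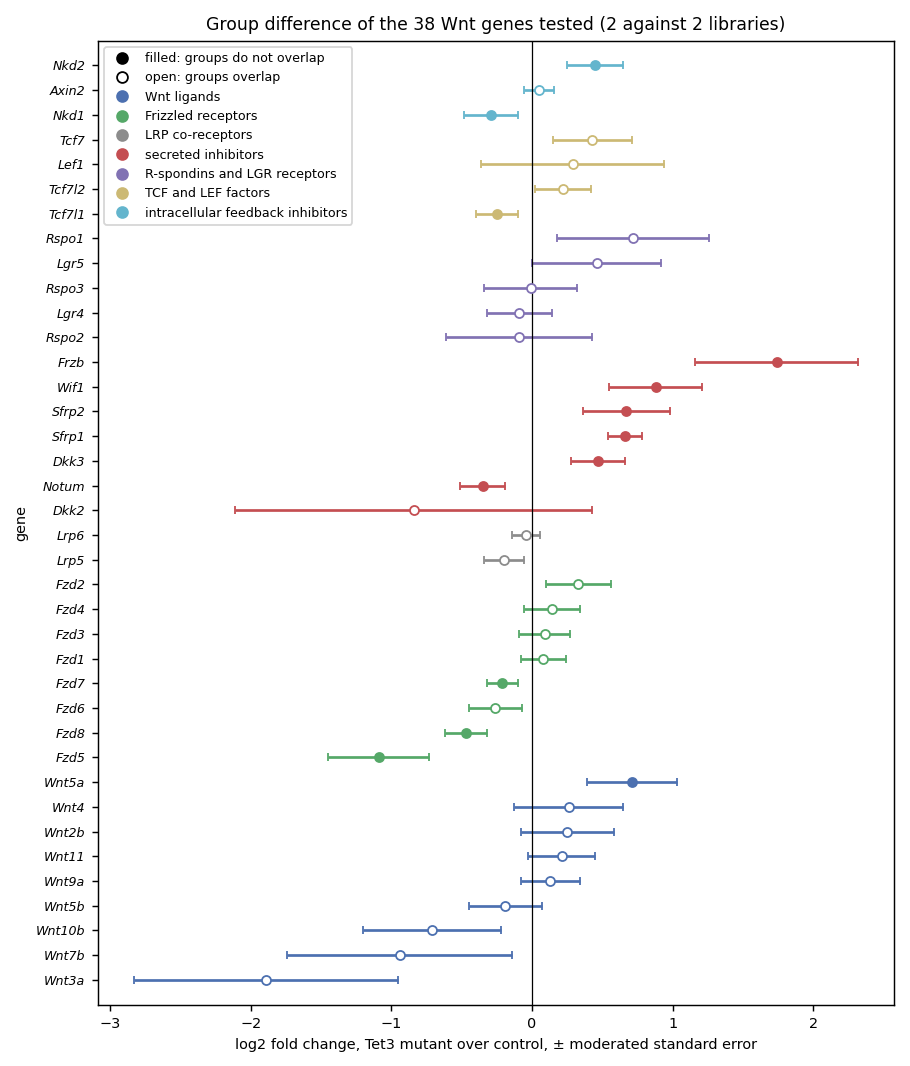
Log2 fold change of *Tet3* mutant over control for the 38 Wnt genes tested, computed on log2(value + 1), with bars for the moderated standard error from limma (2 against 2 libraries) and colours for the role of the gene. Filled points mark the 13 genes whose groups do not overlap. *Frzb*, *Wif1*, *Sfrp2*, *Sfrp1* and *Dkk3* lie to the right of 0 and *Fzd5* and *Fzd8* to the left, and 0 genes passed the adjusted threshold.

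Of the secreted inhibitors, 5 of 7 tested were above both controls in each mutant library, and the median log2 fold change of the group was 0.66, above that of any other role group. Over all genes 19.6% were above both controls in this way. Without *Frzb*, which had to be higher in the mutants to be tested, the count was 4 of 6 and the median 0.56. With *Frzb* kept, the median of the 7 ran from 0.52 to 0.98 without each library in turn. None of the 7 passed the adjusted threshold. In these bulk libraries, fewer cells of a type and less RNA per cell cannot be told apart.

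*Sfrp1* (chr8:23411502-23449632), a secreted Frizzled-related protein that binds Wnt outside the cell, had 511 and 485 normalized counts in the controls and 840 and 734 in the mutants. Both mutants lay well above both controls, and each pair was narrow. The difference was 0.66 ± 0.12 on the log2 scale (moderated standard error, n = 2 per group; 1.58-fold; limma, unadjusted p = 0.00309, adjusted p = 0.681). It ran from 0.56 to 0.75 when each library was left out, with an unadjusted p of at most 0.0443. Without control replicate 2 it was 0.62.

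*Wif1* (chr10:121033960-121100650), which encodes Wnt inhibitory factor, had 40 and 67 normalized counts in the controls and 98 and 95 in the mutants. The mutants were nearly equal and above both controls, which were further apart. The log2 difference was 0.88 ± 0.33 (n = 2 per group; limma, unadjusted p = 0.0437, adjusted p = 0.681) and was 1.25 without control replicate 2 but 0.52, at an unadjusted limma p of 0.0963, without control replicate 1. *Sfrp2* (chr3:83766321-83774316), a relative of *Sfrp1*, had 58 and 89 in the controls and 102 and 130 in the mutants. Here too the groups did not overlap, at a log2 difference of 0.67 ± 0.31 (n = 2 per group; limma, unadjusted p = 0.0799, adjusted p = 0.681), which was 0.98 without control replicate 2 and 0.37 without control replicate 1. An antisense gene covers 16.1% of the exon length of *Sfrp2*, and whether strand was used in counting is not given in the sources used here.

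*Frzb* (chr2:80411970-80447625), also called sFRP3, was a low-level gene, with 8 and 3 normalized counts in the controls and 19 in each mutant. Control replicate 2 lay at the floor. The fitted log2 difference, 1.74 ± 0.58 (n = 2 per group; limma, unadjusted p = 0.0305, adjusted p = 0.681), was 1.15 without that library. *Dkk3* encodes a divergent Dickkopf protein, and whether it holds Wnt back in these cells was not tested. The level per length of *Dkk3* was the highest of all 40 genes, at a mean of 445 normalized counts per kb of exon (range 309 to 533). Its normalized counts were 1489 and 1039 in the controls and 1790 and 1655 in the mutants. Both mutants exceeded both controls, by 0.47 ± 0.19 on the log2 scale (n = 2 per group; limma, unadjusted p = 0.0576, adjusted p = 0.681), by 0.21 without control replicate 2 and by 0.73 without control replicate 1.

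Of the other secreted inhibitors, *Notum* and *Dkk2* had log2 differences below 0, and *Sfrp5* was not tested. *Notum*, whose product removes the lipid of Wnt proteins, had 254 and 271 normalized counts in the controls and 191 and 222 in the mutants. Both mutants were lower, at a log2 difference of -0.35 ± 0.16 (n = 2 per group; limma, unadjusted p = 0.0836, adjusted p = 0.681). The antisense genes *Notumos* and *Myadml2os* cover 38.1% of its exon length. *Dkk2* had 12 and 193 in the controls and 23 and 32 in the mutants, so the group difference of -0.84 ± 1.27 rested on control replicate 2 and was 1.11 without it. *Sfrp5* had 0 and 4 in the controls and 0 and 9 in the mutants. A library at 0 allows up to 3 counts by counting error alone.

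Sequences around the start sites of 4 genes are shown, because these are the members with groups that did not overlap and a fold above 1.5 that have an entry in the RefSeq promoter table (GRCm38.p6). TET enzymes act chiefly on the cytosine of CpG sites. Each CG pair is in capitals. Every window runs 5′ to 3′ on the strand of its gene, from 250 bases before the RefSeq start to 50 after it. For *Sfrp2* that start is the first base of the gene span given above, and for *Fzd5* it lies 1 base inside the span. For *Wif1* it lies 44 bases inside and for *Frzb* 229 bases, so only 21 bases of the *Frzb* window precede the span. The *Frzb* window (chr2:80447347-80447646, minus strand) has 20 CG pairs, that of *Wif1* (chr10:121033754-121034053, plus strand) 25, that of *Sfrp2* (chr3:83766071-83766370, plus strand) 22 and that of *Fzd5* (chr1:64737701-64738000, minus strand) 38.
Frzb: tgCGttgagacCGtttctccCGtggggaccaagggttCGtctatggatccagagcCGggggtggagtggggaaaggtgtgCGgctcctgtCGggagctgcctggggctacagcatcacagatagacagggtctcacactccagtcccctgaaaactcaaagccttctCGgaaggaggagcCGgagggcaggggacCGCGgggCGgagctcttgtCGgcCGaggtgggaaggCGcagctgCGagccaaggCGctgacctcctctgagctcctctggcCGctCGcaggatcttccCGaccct
Wif1: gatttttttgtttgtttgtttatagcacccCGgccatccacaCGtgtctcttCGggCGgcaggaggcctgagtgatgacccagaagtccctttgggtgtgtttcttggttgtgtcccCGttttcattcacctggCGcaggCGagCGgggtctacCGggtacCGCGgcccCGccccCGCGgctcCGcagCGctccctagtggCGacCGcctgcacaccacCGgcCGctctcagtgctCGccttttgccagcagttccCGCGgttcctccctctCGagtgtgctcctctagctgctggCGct
Sfrp2: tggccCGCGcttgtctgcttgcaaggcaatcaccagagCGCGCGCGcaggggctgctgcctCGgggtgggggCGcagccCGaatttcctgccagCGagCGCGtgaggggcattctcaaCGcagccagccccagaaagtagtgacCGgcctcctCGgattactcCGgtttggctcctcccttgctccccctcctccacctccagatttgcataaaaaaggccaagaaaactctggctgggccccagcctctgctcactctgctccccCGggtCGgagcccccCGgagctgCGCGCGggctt
Fzd5: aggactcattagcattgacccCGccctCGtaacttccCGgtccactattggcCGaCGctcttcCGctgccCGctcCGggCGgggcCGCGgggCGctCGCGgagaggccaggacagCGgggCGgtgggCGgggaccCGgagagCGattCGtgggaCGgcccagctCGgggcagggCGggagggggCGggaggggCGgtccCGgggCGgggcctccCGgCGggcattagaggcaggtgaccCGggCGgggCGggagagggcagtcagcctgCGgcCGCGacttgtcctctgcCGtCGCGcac

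*Sfrp1*, *Wnt5a* and *Fzd8* are named only. The 35 windows of 27 members in that table held from 4 to 58 CG pairs with a median of 24, against a median of 7 in the 32851 windows of all genes. DNA methylation was not analysed here. The letters CTTTGAT and CTTTGAA, which TCF and LEF factors are known to bind and which differ in the last base only, were searched on both strands. They occurred in 2 of the 35 windows (5.71%), against 8.65% of all windows. These were a window of *Wnt5b*, with CTTTGAT starting at base -71 from the start site, and a window of *Wnt11*, with ATCAAAG, the same letters on the opposite strand, at -51. That *Wnt5b* start lies 94961 bases inside the gene span, and the window at the first base of the *Wnt5b* span held no match.

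All 9 ligand genes of the set were tested, *Wnt5a* standing at the highest level per length among them. *Wnt5a* (chr14:28504750-28527448), best known for signalling without β-catenin, had a mean of 93.4 normalized counts per kb of exon (range 49.5 to 116). It was followed by *Wnt9a* at 50.7 (41.8 to 55.6) and *Wnt4* at 38.6 (24.3 to 50.3). *Wnt2b*, *Wnt11* and *Wnt5b* came next at 36.3, 33.4 and 27.5, and *Wnt7b*, *Wnt10b* and *Wnt3a* stood lowest, at 14.3, 13.1 and 12.0 per kb. Neighbours in this order overlapped in their ranges throughout.

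In *Wnt5a* the normalized counts were 762 and 387 in the controls and 869 and 904 in the mutants. The mutants were close together and above both controls, but control replicate 1 was nearer to the mutants than to the other control. The log2 difference was 0.71 ± 0.32 (n = 2 per group; limma, unadjusted p = 0.0802, adjusted p = 0.681), 0.22 without control replicate 2 and 1.19 without control replicate 1. *Wnt9a* and *Wnt4* did not separate the groups. *Wnt9a* had 185 and 139 against 169 and 182, a log2 difference of 0.13 ± 0.21, and *Wnt4*, a ligand with roles in kidney and reproductive tract, had 197 and 102 against 211 and 137, a difference of 0.26 ± 0.39 (limma, adjusted p = 0.881 and 0.870, n = 2 per group).

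The low ligand genes *Wnt3a*, *Wnt7b* and *Wnt10b* were highest in control replicate 2. *Wnt3a*, a classical activator of β-catenin signalling, had 21 and 85 normalized counts in the controls and 5 and 22 in the mutants, a log2 difference of -1.89 ± 0.94 that was -0.91 without control replicate 2 (n = 2 per group; limma, adjusted p = 0.683). *Wnt7b*, a ligand made by lung epithelium, had 32 and 171 against 35 and 42. Its difference of -0.94 ± 0.80 became 0.25 without control replicate 2. *Wnt10b* had 37 and 75 against 24 and 42. In the same library the summed normalized counts of the 10 alveolar type 2 markers (25448) and of the 8 alveolar type 1 markers (6352) were higher than in the other 3 (12254 to 17014 and 3543 to 4635). The part of such cells in these values was not tested. *Wnt2b* (180 and 103 against 141 and 186), *Wnt5b* (87 and 69 against 65 and 71) and *Wnt11* (110 and 147 against 161 and 135) overlapped between the groups, with log2 differences from -0.19 to 0.25. The median over the 9 ligands was 0.13, 5 of them above 0, and -0.15 without control replicate 2.

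The receptors most abundant per length were *Fzd1*, *Fzd7* and *Fzd4*, and the 2 receptors with the lowest limma p, *Fzd5* and *Fzd8*, stood in the lower part of the order. The mean levels per kb of exon were 297 for *Fzd1* (range 248 to 332), 259 for *Fzd7* (224 to 281) and 184 for *Fzd4* (144 to 209). The ranges of *Fzd1* and *Fzd7* overlapped, that of *Fzd4* lay below both, and that of the next, *Fzd2*, at 85.7 (60.9 to 98.0), lay below that of *Fzd4*. *Fzd6* (72.0), *Fzd8* (49.6), *Fzd5* (47.3), *Fzd3* (28.9) and *Fzd10* (2.31) followed. The co-receptors *Lrp6* and *Lrp5* had 215 (205 to 224) and 171 (153 to 203) per kb.

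*Fzd5* (chr1:64730558-64737751), a receptor prominent in epithelium, had 305 and 597 normalized counts in the controls and 171 and 235 in the mutants. Both mutants were below both controls, and the controls were themselves almost 1 log2 unit apart (0.97). The log2 difference was -1.09 ± 0.36 (n = 2 per group; limma, unadjusted p = 0.029, adjusted p = 0.681) and -0.60 without control replicate 2, at an unadjusted limma p of 0.112. *Fzd5* followed the alveolar markers in being highest in control replicate 2 and lowest in mutant replicate 1, and the part of alveolar cells was not tested. The antisense gene *Gm38058* covers 17.8% of its exon length.

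*Fzd8*, a close relative of *Fzd5*, had 320 and 368 in the controls and 235 and 262 in the mutants. The groups were apart and each was narrow, at a log2 difference of -0.47 ± 0.15 (n = 2 per group; limma, unadjusted p = 0.0288, adjusted p = 0.681), and -0.37 without control replicate 2. *Fzd7* had 1274 and 1244 in the controls and 1015 and 1162 in the mutants, also without overlap but at a smaller difference of -0.21 ± 0.11 (n = 2 per group; limma, unadjusted p = 0.121, adjusted p = 0.689). *Fzd1* (1395 and 1040 against 1288 and 1265) and *Fzd4* (1405 and 967 against 1314 and 1264) overlapped, with both mutants between the controls and differences of 0.08 ± 0.16 and 0.14 ± 0.20 (n = 2 per group; limma, adjusted p = 0.902 and 0.850).

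Among the remaining receptors, *Fzd2* had 339 and 223 against 359 and 334, *Fzd3* 409 and 309 against 403 and 357, and *Fzd6* 329 and 430 against 288 and 340, each with overlap. *Fzd10* was near the floor at 7 in both controls and at 5 and 11 in the mutants. *Lrp5* had 1592 and 1977 against 1491 and 1601 and *Lrp6* 3063 and 2891 against 2999 and 2809, at log2 differences of -0.20 ± 0.14 and -0.04 ± 0.10 (n = 2 per group; limma, adjusted p = 0.722 and 0.937). The 95% interval for *Lrp6*, -0.30 to 0.23, was the narrowest of the 38. The Frizzled median was -0.06, with 4 of 8 above 0.

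**Figure D2:**
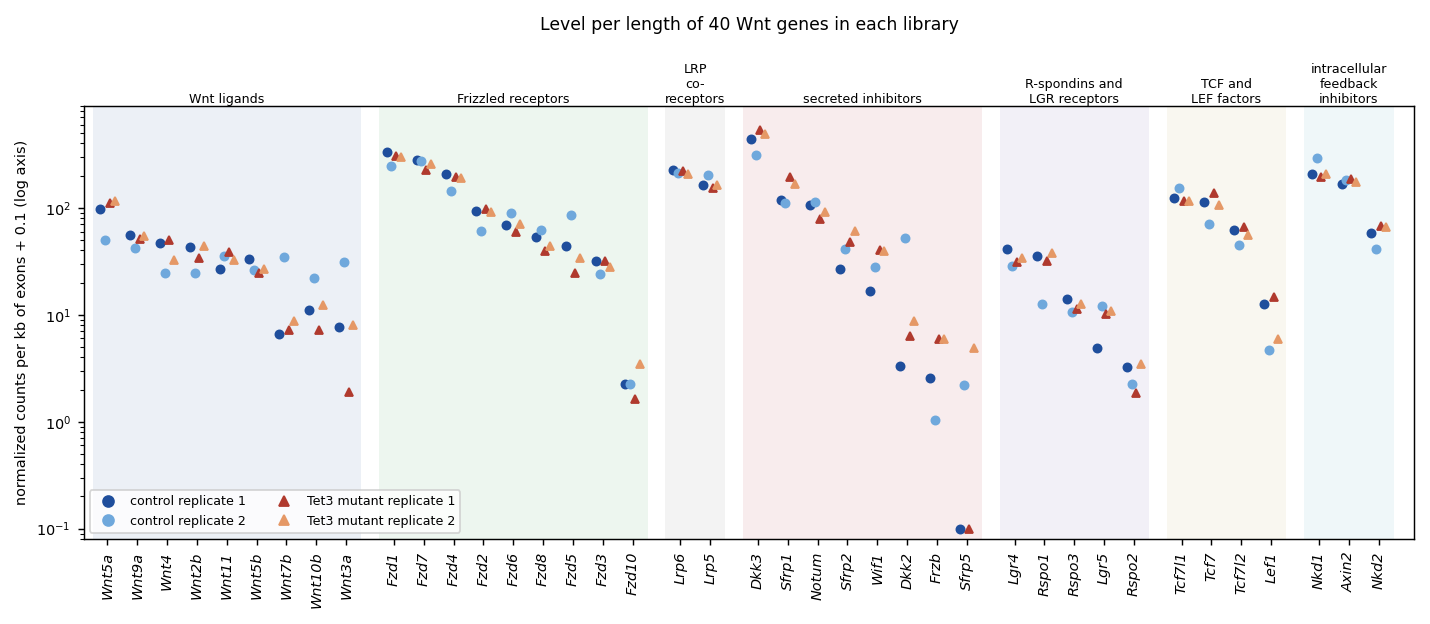
Normalized counts per kb of exon, plus 0.1, on a log axis for the 40 genes found, ordered by mean within each role, with 1 point for each of the 4 libraries (circles, controls; triangles, *Tet3* mutants). *Dkk3* stands highest, *Wnt5a* leads the 9 ligands of the set, and *Fzd1*, *Fzd7* and *Fzd4* lead the receptors. Control replicate 2 lies apart from the other 3 libraries in *Wnt3a*, *Wnt7b*, *Dkk2* and *Rspo1*.

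R-spondins, which amplify Wnt signals, and their LGR receptors were low and did not separate the groups. *Lgr4* was the highest of them at a mean of 33.7 normalized counts per kb (28.7 to 41.1), followed by *Rspo1* at 29.3 (12.4 to 37.7), *Rspo3* at 12.1 (10.4 to 13.9), *Lgr5* at 9.38 and *Rspo2* at 2.59. *Lgr4* had 242 and 169 normalized counts in the controls and 183 and 198 in the mutants. *Rspo1* had 68 and 24 against 62 and 73, and its log2 difference of 0.72 ± 0.54 was -0.02 without control replicate 2. *Rspo3* had 43 and 32 against 35 and 39, at a difference of -0.01 ± 0.33. The limma adjusted p of these 3 were 0.927, 0.729 and 0.997 (n = 2 per group). *Lgr5*, a stem cell marker in several epithelia, had 49 and 122 against 104 and 110, so that control replicate 1 alone was low. Its difference was 0.46 ± 0.46, 1.11 without control replicate 2 and -0.19 without control replicate 1. *Rspo2* had 16 and 11 against 9 and 17. The group median was -0.01, with 2 of 5 above 0.

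The nuclear factors *Tcf7*, *Tcf7l2* and *Lef1* were lowest in control replicate 2, and *Tcf7l1* was highest there. *Tcf7l1*, known mainly as a repressor, had 484 and 602 normalized counts in the controls and 455 and 452 in the mutants. Both mutants lay just under control replicate 1, at a log2 difference of -0.25 ± 0.15 (n = 2 per group; limma, unadjusted p = 0.152, adjusted p = 0.697), and -0.09 without control replicate 2. *Tcf7*, which T cells express strongly, had 299 and 184 against 361 and 279, a difference of 0.43 ± 0.28 (limma, adjusted p = 0.711, n = 2 per group) that was 0.09 without control replicate 2. *Tcf7l2* had 539 and 394 against 585 and 490, at 0.22 ± 0.20 (limma, adjusted p = 0.769, n = 2 per group). *Lef1*, also expressed by T cells, had 109 and 40 against 129 and 51, and the 2 mutants differed by nearly as much as the 2 controls. Per kb of exon the means were 127, 107, 57.2 and 9.36 for *Tcf7l1*, *Tcf7*, *Tcf7l2* and *Lef1*. The 12 T cell markers summed to 348 normalized counts in control replicate 2 and to 1164 to 1271 in the others, with *Trac* and *Trbc2* at 3 in that library. In mutant replicate 2 *Lef1* stood at 51, whereas the T cell sum there was 1245. The 7 B cell markers summed to 636 and 168 in the controls and to 603 and 348 in the mutants. The part of T cells or B cells in the *Tcf7* and *Lef1* values was not tested.

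The feedback inhibitors are commonly read as outputs of β-catenin signalling. *Axin2*, a scaffold of the complex that degrades β-catenin and a widely used reporter of the pathway, had 915 and 989 normalized counts in the controls and 1024 and 952 in the mutants. The groups overlapped, and the log2 difference of 0.05 ± 0.11 had a 95% interval of -0.23 to 0.33 (n = 2 per group; limma, unadjusted p = 0.645, adjusted p = 0.907). *Nkd1* and *Nkd2*, which encode Naked cuticle proteins acting on Dishevelled, differed in opposite directions. *Nkd1* had 941 and 1339 against 891 and 940, with the higher mutant just under the lower control, at -0.29 ± 0.19, and -0.04 without control replicate 2. *Nkd2* had 279 and 200 against 324 and 322, at 0.45 ± 0.20, and 0.21 without control replicate 2 (limma, adjusted p = 0.709 and 0.681, n = 2 per group). Per kb, *Nkd1* (225) and *Axin2* (176) stood above *Nkd2* (58.3).

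The spread between the 2 controls exceeded the difference between the groups in 30 of 38 members (78.9%, against 62.6% of all genes). The median size of the control difference was 0.51 on the log2 scale for the members and 0.28 for all genes, whereas the 2 mutants differed by a median of 0.17 and 0.18. Control replicate 2 was the highest or the lowest of the 4 libraries in 30 members (78.9%, against 66.2%), highest in 12 (31.6%, against 33.2%) and lowest in 18 (47.4%, against 33.1%). The same held for 16 members in control replicate 1 (42.1%, against 40.7%), 22 in mutant replicate 1 (57.9%, against 44.6%) and 7 in mutant replicate 2 (18.4%, against 43.2%). In 5 members, *Dkk2*, *Frzb*, *Rspo1*, *Wnt3a* and *Wnt7b*, control replicate 2 was more than 2-fold from each of the others (13.2%, against 6.02%). Without it, 14 of 38 log2 differences were above 0 and the median of the members was -0.07.

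**Figure D3:**
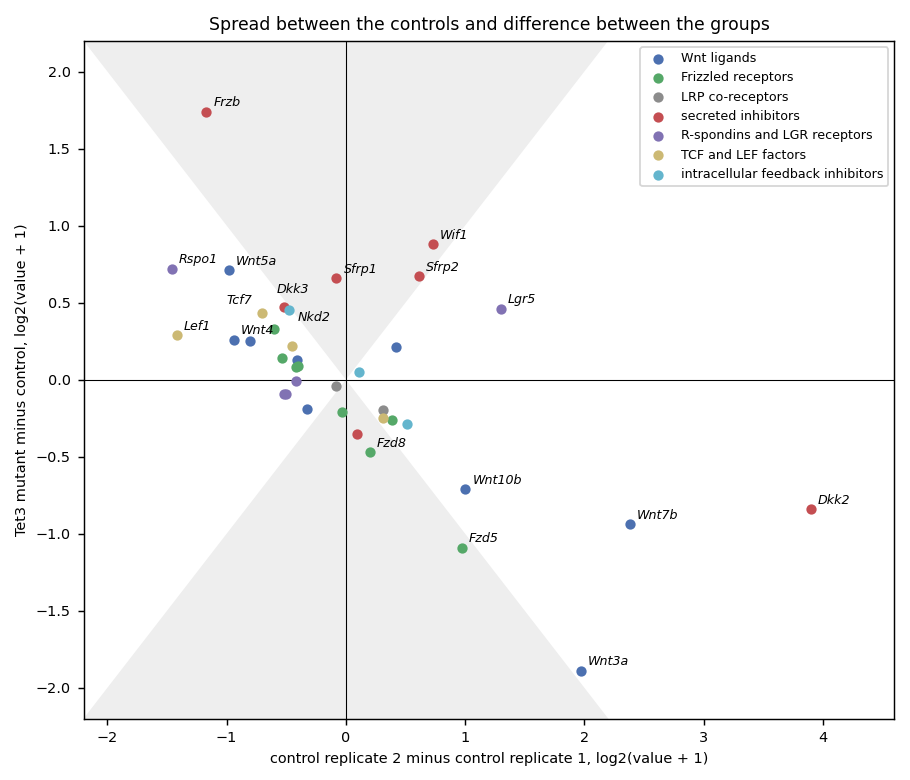
Log2 difference between the groups (vertical axis, *Tet3* mutant minus control) against the log2 difference between the controls (horizontal axis, replicate 2 minus replicate 1), both on log2(value + 1), with 1 point per Wnt gene tested (n = 38). In the grey area the group difference is the larger of the 2. *Sfrp1*, *Fzd8*, *Wif1*, *Sfrp2*, *Frzb* and *Fzd5* lie inside it, and *Dkk2*, *Wnt7b* and *Rspo1* are among the 30 outside.

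Of 92 other genes of the pathway, 84 were in the table and 76 were tested. None had a limma adjusted p under 0.05. At an unadjusted limma p under 0.05 there were 8 (10.5%, against 6.68% of all genes). All 8 were lower in the mutants, against 2.85% of all genes, and 0 were higher, against 3.83%. Of the 76 log2 differences, 31 were above 0. *Rnf43* and *Znrf3*, ubiquitin ligases that remove Frizzled from the surface and that R-spondins counteract, were both among the 8. *Znrf3* had 1095 and 880 normalized counts in the controls and 661 and 670 in the mutants, without overlap, at a log2 difference of -0.56 ± 0.14 (n = 2 per group; limma, unadjusted p = 0.0104, adjusted p = 0.681). *Rnf43* had 151 and 467 against 89 and 96, at -1.51 ± 0.54 (n = 2 per group; limma, unadjusted p = 0.0367, adjusted p = 0.681), and in this gene control replicate 2 stood far above the other control. Without that library the differences were -0.72 for *Znrf3* and -0.70 for *Rnf43*, and without control replicate 1 they were -0.40 and -2.32.

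Of the complex that degrades β-catenin and its partners, *Apc* (2568 and 3389 against 2143 and 2208), *Gsk3b* (1762 and 1799 against 1493 and 1494) and *Dvl3* (685 and 788 against 573 and 589) were among the 8, at log2 differences of -0.44, -0.25 and -0.34. APC and GSK3β belong to that complex and Dishevelled inhibits it. Of the partners of β-catenin in the nucleus, the coactivator gene *Pygo1* (360 and 485 against 263 and 294) and the corepressor gene *Tle2* (389 and 888 against 299 and 279) stood at -0.59 and -1.02. *Celsr2*, a cadherin of planar cell polarity, had 296 and 341 against 196 and 198, at -0.69 (n = 2 per group; limma, unadjusted p = 0.00639). The limma adjusted p was 0.681 for each of these 6 genes, and in none of the 6 did the groups overlap, as in 36 of the 76 tested (47.4%, against 39.0% of all genes). Without control replicate 2 the differences shrank to -0.24 for *Apc*, -0.24 for *Dvl3*, -0.37 for *Pygo1* and -0.43 for *Tle2*, and were -0.24 for *Gsk3b* and -0.58 for *Celsr2*. The median log2 difference was -0.11 over the list of 18 genes of the degradation complex, its regulators and β-catenin. That list mixes parts of the complex with β-catenin itself and with the Dishevelled genes. The median was -0.17 over 14 nuclear partners, -0.09 over 12 polarity genes and 0.08 over 16 other surface receptors and regulators. It was 0.09 over 9 secretion genes and 0.05 over 15 reported targets, 8 of which were above 0. Without control replicate 2 the medians were -0.08, -0.11, -0.07, -0.04, 0.05 and -0.04 in the same order, so those of the surface genes and the reported targets turned sign. The target median was also below 0, at -0.07, without control replicate 1. The 15 reported targets are not separate from the other lists. They include the members *Axin2*, *Lef1*, *Lgr5*, *Nkd1*, *Notum* and *Tcf7*, and some genes of the surface list. *Wnt2*, expressed in lung mesenchyme, was the only further ligand tested. It had 506 and 270 normalized counts in the controls and 460 and 402 in the mutants, a mean of 182 per kb (120 to 225), above the range of *Wnt5a*. Its log2 difference was 0.22, but -0.23 without control replicate 2 and 0.67 without control replicate 1.

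**Figure D4:**
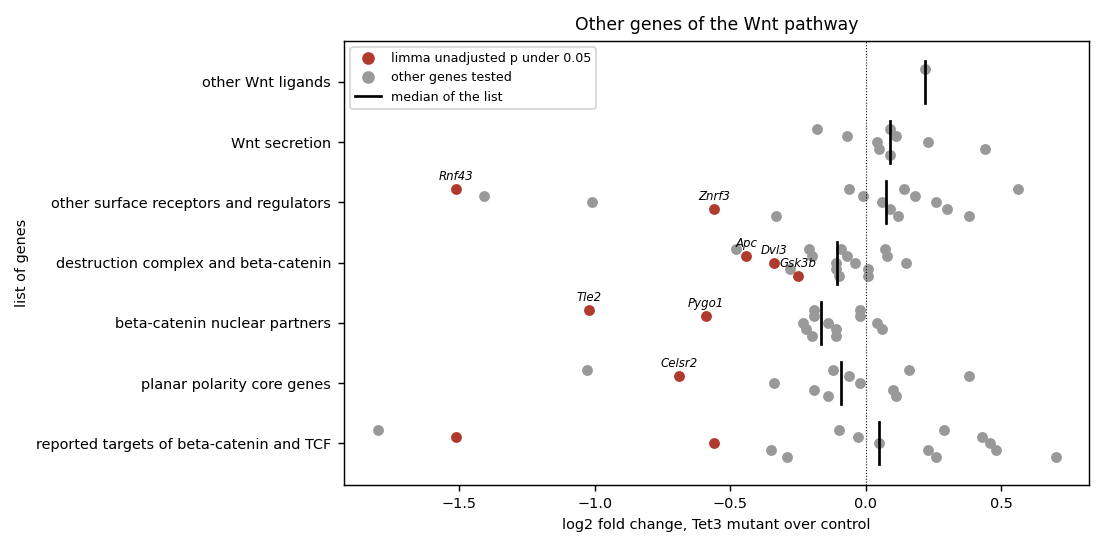
Log2 fold change, *Tet3* mutant over control, of the other Wnt pathway genes tested, by list, with 1 point per gene and a bar at the median of the list. The reported targets also include the members *Axin2*, *Lef1*, *Lgr5*, *Nkd1*, *Notum* and *Tcf7*. The 8 genes with a limma unadjusted p under 0.05 are red and lie left of 0, and *Rnf43* and *Znrf3* appear again, unnamed, among the reported targets. The medians run from -0.17 to 0.22.

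Markers of other cells also differed between the groups or libraries. The 10 alveolar type 2 markers had a median log2 difference of -0.60, all 10 below 0, and their sum was 17014 and 25448 in the controls against 12254 and 15344 in the mutants. The 8 ciliated cell markers had a median of 0.68, all 8 above 0 (3238 and 3639 against 6528 and 4313), the 7 pericyte markers 0.49, all 7 above 0 (4334 and 4502 against 6340 and 5432), and the 10 smooth muscle markers 0.46, 9 above 0 (10762 and 11305 against 12895 and 11870). For macrophages the 9 markers had a median of 0.41, all above 0 (6697 and 5695 against 7202 and 8431), and for fibroblasts 9 of 10 were above 0, at 0.19. Medians were -0.51 for alveolar type 1, 1.13 for T cells, 0.60 for B cells, 0.14 for club cells, 0.08 for endothelium, 0.12 for Schwann cells and -0.31 for mesothelium. Without control replicate 2 the median was -0.32 for alveolar type 2, -0.10 for alveolar type 1, 0.17 for T cells, 0.25 for macrophages, 0.03 for fibroblasts, 0.32 for Schwann cells and -1.22 for mesothelium, and it turned sign for B cells (-0.54), club cells (-0.23) and endothelium (-0.01). It was 0.78 for ciliated cells, 0.52 for pericytes and 0.73 for smooth muscle, the last of which was 0.21 without control replicate 1. Without control replicate 1 the mesothelial median was 0.37 and that of Schwann cells -0.14. Without mutant replicate 1 the medians were 0.32 for ciliated cells and 0.08 for B cells. Among the Wnt genes tested, *Sfrp1*, *Dkk3*, *Wif1* and *Nkd2* were highest in mutant replicate 1 and next in mutant replicate 2. *Sfrp2* was highest in mutant replicate 2, and *Frzb* was equal in both mutants. The sums of the pericyte, ciliated, smooth muscle, endothelial and T cell lists were also highest in mutant replicate 1 and next in mutant replicate 2. The part of these cells in the secreted inhibitors was not tested.

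**Figure D5:**
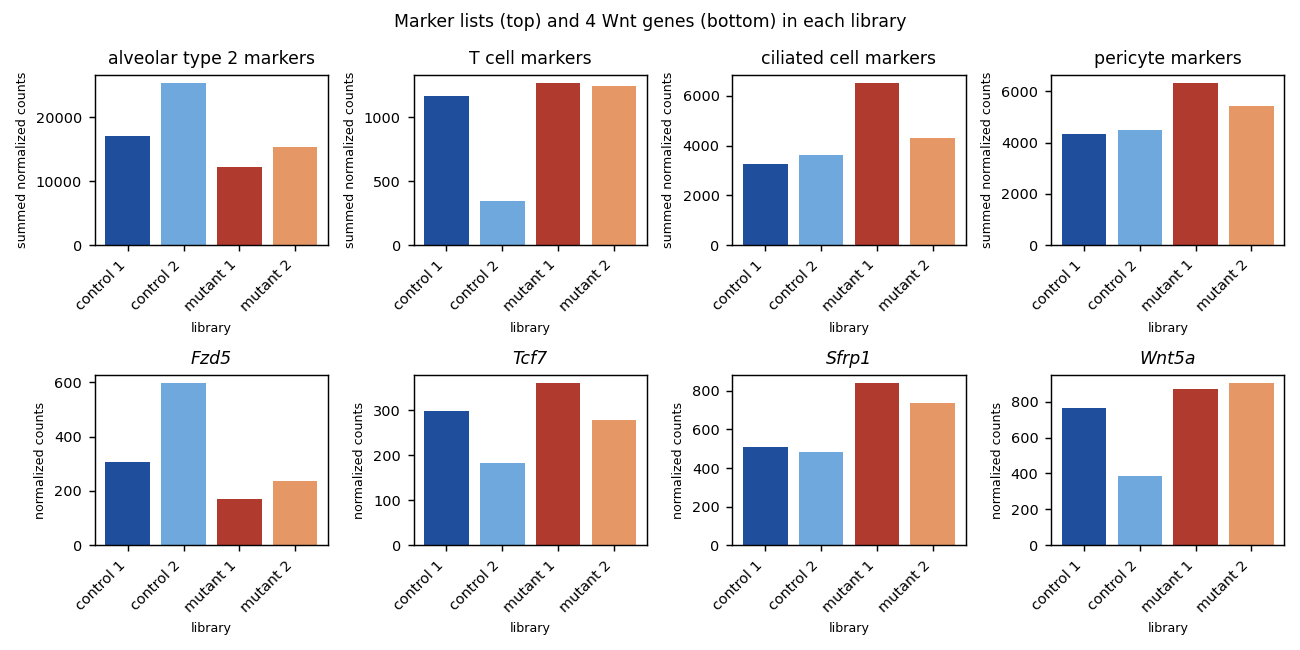
Summed normalized counts of 4 marker lists (top) and normalized counts of 4 Wnt genes (bottom) in each library, with 1 bar per library and no error bars. These genes and lists were chosen after their values were seen. *Fzd5* is highest in control replicate 2, as are the alveolar type 2 markers, *Tcf7* is lowest there, as are the T cell markers, and *Sfrp1* is higher in both mutants, as are the ciliated and pericyte markers.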

How the data were processed

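Expression was measured by RNA-seq of sorted lung smooth muscle cells in 2 *Tet3* mutant and 2 control libraries, grouped by the genotype in their labels. The authors depleted ribosomal RNA, made stranded total RNA libraries and, per the submitters' processing notes, used Trimmomatic 0.36, STAR 2.6.0c and featureCounts (Subread 1.6.0) on mm10 (GRCm38). By their methods, reads that mapped to several places or overlapped several genes were left out, so overlapping genes may be undercounted. Use of strand in counting is not given in the sources used here. The deposited values are a score, namely counts that the authors scaled between samples with DESeq2 and rounded. Since raw counts were not used, no count model was fitted. Deposited totals divided by scaling factors estimated from the low values gave 6.32 M to 7.56 M assigned reads per library, and floors and levels near them cover counting error only.

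Genes with a mean of at least 10 were compared on log2(value + 1), which understates changes of low genes, with limma 3.58.1 in R 4.3.3 (eBayes with trend, two-sided, Benjamini-Hochberg over 16659 genes, threshold 0.05). The fit was tested on simulated data. Levels were divided by merged exon length from GENCODE M21. Promoters came from RefSeq. Alternatives were pseudocounts of 0.5 and 8, minimum means of 1 and 50, TMM factors, equal totals, limma without trend, a replicate block and leaving out each library. The members and lists were chosen with earlier results of these data known. All members are named. Given in full are those with an unadjusted p under 0.05, those whose groups do not overlap at over 1.5-fold, and the 3 of highest level per length in each role group of more than 3. Other pathway genes are named where their unadjusted p is under 0.05, and *Tet3*, the sex-linked genes, *Acta2*, *Trac*, *Trbc2* and *Wnt2* are named outside this rule.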

Additional observations from a re-analysis of the deposited data

How the results depend on the processing

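The number of genes past the adjusted limma threshold was 0 under every alternative except limma without the trend (1 gene, not a member). The 5 members at an unadjusted p under 0.05 were 5 with pseudocounts of 0.5 or 8, a minimum mean of 1 or TMM factors, 6 with equal totals, 4 without the trend and 3 with a minimum mean of 50, which left 33 members. They numbered 1 to 17 when each library was left out, where the lone library of a group is assumed to vary like the other group. *Sfrp1* was among them in every setting. The labels give mutants and controls the same replicate numbers. Deviations of same-numbered libraries from their group means correlated at 0.13 over genes. With only 2 pairs this value cannot show whether same-numbered samples were handled together, and the labels do not say. With a replicate block 9 members and 9.83% of all genes had an unadjusted limma p under 0.05 (smallest adjusted p of a member 0.271).

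The median log2 fold change of the members was -0.07 to 0.19 without each library, and 17 of 38 members changed sign in at least 1 of these fits. The ranges were -0.15 to 0.65 for *Wnt2b*, -0.21 to 0.73 for *Wnt4*, -2.13 to 0.25 for *Wnt7b*, -0.08 to 0.33 for *Wnt9a*, -0.13 to 0.30 for *Fzd1*, -0.11 to 0.29 for *Fzd3*, -0.12 to 0.41 for *Fzd4*, -0.08 to 0.01 for *Lrp6*, -2.79 to 1.11 for *Dkk2*, -0.02 to 1.45 for *Rspo1*, -0.51 to 0.33 for *Rspo2*, -0.21 to 0.20 for *Rspo3*, -0.34 to 0.17 for *Lgr4*, -0.19 to 1.11 for *Lgr5*, -0.42 to 1.00 for *Lef1*, -0.01 to 0.44 for *Tcf7l2* and -0.00 to 0.11 for *Axin2*. Under other settings *Lrp6* reversed to 0.01 with equal totals and *Rspo3* to 0.01 with TMM factors and 0.04 with equal totals. The causes were not tested. Depth limits *Frzb*, *Fzd10* and *Sfrp5*, which lie near the floor.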
